A study of Mus musculus with 13 samples.

Results

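The granzymes and cytotoxic granule genes described here are 9 genes, Gzma, Gzmb, Gzmc, Gzmk, Gzmm, Prf1, Nkg7, Fasl and Serpinb9, out of 19505 genes with a named probe set on the arrays. They were taken by gene symbol from the array annotation, and each of the 9 had a single probe set. RNA came from the gut of female FVB mice, and every animal, treated or not, bore a syngeneic mammary tumour that expresses human HER2. Mice of the treated groups received vancomycin at 200 mg/L with their drinking water from 4 weeks of age onward. The mice were killed at 9 weeks, at a tumour volume of 150 mm3, and the labels do not say whether the weeks are of age or of treatment. The 13 arrays fall into 4 groups: ileum with vancomycin (3 arrays, replicates 11, 13 and 14), ileum without antibiotic (3 arrays, replicates 1, 2 and 3), colon with vancomycin (3 arrays, replicates 11, 13 and 14) and colon without antibiotic (4 arrays, replicates 1, 2, 3 and 5). The comparison asks what vancomycin, an antibiotic that acts mainly on Gram-positive bacteria, changed in the expression of each tissue.

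Cytotoxic T lymphocytes, intraepithelial lymphocytes of the gut and natural killer cells store granzymes, a family of serine proteases, in cytoplasmic granules with the pore-forming protein perforin. On contact with a target cell the granules are released, perforin opens the target's membrane, and granzymes enter and cleave proteins that lead to cell death. Fas ligand is a separate route to the same end, and Serpinb9 codes for an intracellular inhibitor of granzyme B that protects the lymphocyte itself. In the small intestine, intraepithelial lymphocytes are known for high constitutive expression of Gzma and Gzmb.

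Gzma and Gzmk are adjacent genes on mouse chromosome 13, and Gzmb and Gzmc are adjacent on chromosome 14, in RefSeq's annotation of GRCm38.p6. The probe sequences were not used here, so cross-hybridisation between neighbouring granzymes was not tested. The promoters of Gzma, Gzmb and Nkg7 are shown because these 3 members carried the changes described below. Each sequence is RefSeq's GRCm38.p6, 300 bases on the gene's strand, 250 before the start of the gene and 50 after it. Capitals mark matches on either strand to the RUNX motif TGTGGT, which reads ACCACA on the other strand, the T-box motif TCACAC, which reads GTGTGA on the other strand, and the STAT motif TTCNNNGAA, which are motifs of transcription factor families that act in lymphocytes.
Gzma, chr13:113100932-113101231, minus strand: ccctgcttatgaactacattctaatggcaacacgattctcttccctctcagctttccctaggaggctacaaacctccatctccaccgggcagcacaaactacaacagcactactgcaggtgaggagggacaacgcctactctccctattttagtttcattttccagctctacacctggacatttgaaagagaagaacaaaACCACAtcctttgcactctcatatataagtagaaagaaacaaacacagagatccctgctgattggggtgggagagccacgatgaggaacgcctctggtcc
Gzmb, chr14:56262285-56262584, minus strand: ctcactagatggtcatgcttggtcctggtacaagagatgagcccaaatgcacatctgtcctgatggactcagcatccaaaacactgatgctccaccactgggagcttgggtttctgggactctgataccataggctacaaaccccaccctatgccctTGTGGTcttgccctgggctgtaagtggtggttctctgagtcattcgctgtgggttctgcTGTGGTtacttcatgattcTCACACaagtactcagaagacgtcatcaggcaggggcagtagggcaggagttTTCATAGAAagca
Nkg7, chr7:43436888-43437187, plus strand: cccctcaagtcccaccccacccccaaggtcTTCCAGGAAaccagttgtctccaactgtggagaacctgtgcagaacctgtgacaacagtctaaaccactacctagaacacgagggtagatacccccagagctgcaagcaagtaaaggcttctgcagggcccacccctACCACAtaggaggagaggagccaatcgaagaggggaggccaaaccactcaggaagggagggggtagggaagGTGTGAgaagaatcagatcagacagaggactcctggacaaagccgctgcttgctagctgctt
The Gzma window held 1 match, to RUNX, at position -50 relative to the start. The Gzmb window held RUNX matches at -93 and -34, a T-box match at -15 and a STAT match at 37. In the Nkg7 window the matches lay at -83 (RUNX), -12 (T-box) and -220 (STAT), and no match overlapped another in these windows. All 9 members had a promoter in the table, of which Gzmm had several windows. A member was counted when any of its windows matched, while the share over all promoters counts each window singly. The RUNX and STAT matches of Gzmm lay in a different window from its T-box matches. A RUNX match occurred in 7 of the 9 members and in 16.8% of 32851 promoters of the same length, a T-box match in 4 members and 14.5% of promoters, and a STAT match in 3 members and 8.3% of promoters. The TATA motif TATAAA occurred in 0 of the 9 members and in 13.6% of promoters. These matches describe the letters in the windows and say nothing about binding.

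The deposited values are log2 expression values, on which 1 unit is nominally a doubling. They ran between 3.01 and 18.25 over all probe sets, with array medians between 7.98 and 8.14, and no detection calls were used, so that no gene is called absent. Genes typical of the ileum, such as the bile acid transporter Slc10a2, and of the colon, such as the carbonic anhydrase Car1, separated the tissues as labelled: 6 of 6 ileal genes were lower and 5 of 5 measured colonic genes were higher in the colon with and without vancomycin. Vancomycin ileum replicate 11 stood apart from the other 2 arrays of its group. Its mean over 9 B cell markers was 10.35, against 7.93 and 7.50 on replicates 13 and 14, and its mean over 10 smooth muscle markers was 14.32, against 13.37 and 12.91. Its mean over 10 epithelial markers was 14.57, against 15.04 and 15.03. The ileal results for Gzma, Gzmb and Nkg7 are therefore given with and without it.

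In the ileum, 3 of the 9 genes fell with vancomycin and 0 rose: Gzma and Gzmb, the granzymes known from intraepithelial lymphocytes, and Nkg7, a membrane protein of cytotoxic granules. The log2 difference was -3.54 ± 0.42 for Gzmb, nominally an 11.7-fold fall, -3.45 ± 0.54 for Gzma and -1.83 ± 0.19 for Nkg7 (SE, limma, n = 3 arrays each). Among all 19572 probe sets tested, 0.485% were lower at an adjusted p under 0.05 and 0.0511% were higher. The other 6 genes did not pass, and the median difference of the 9 genes was -0.22, against 0.0233 over all probe sets. In RNA from whole tissue, fewer cells of a type and less RNA per cell cannot be told apart. The labels do not say that arrays of a group come from separate mice, so p-values measure the spread between these arrays, which may be technical.

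**Figure D1:**
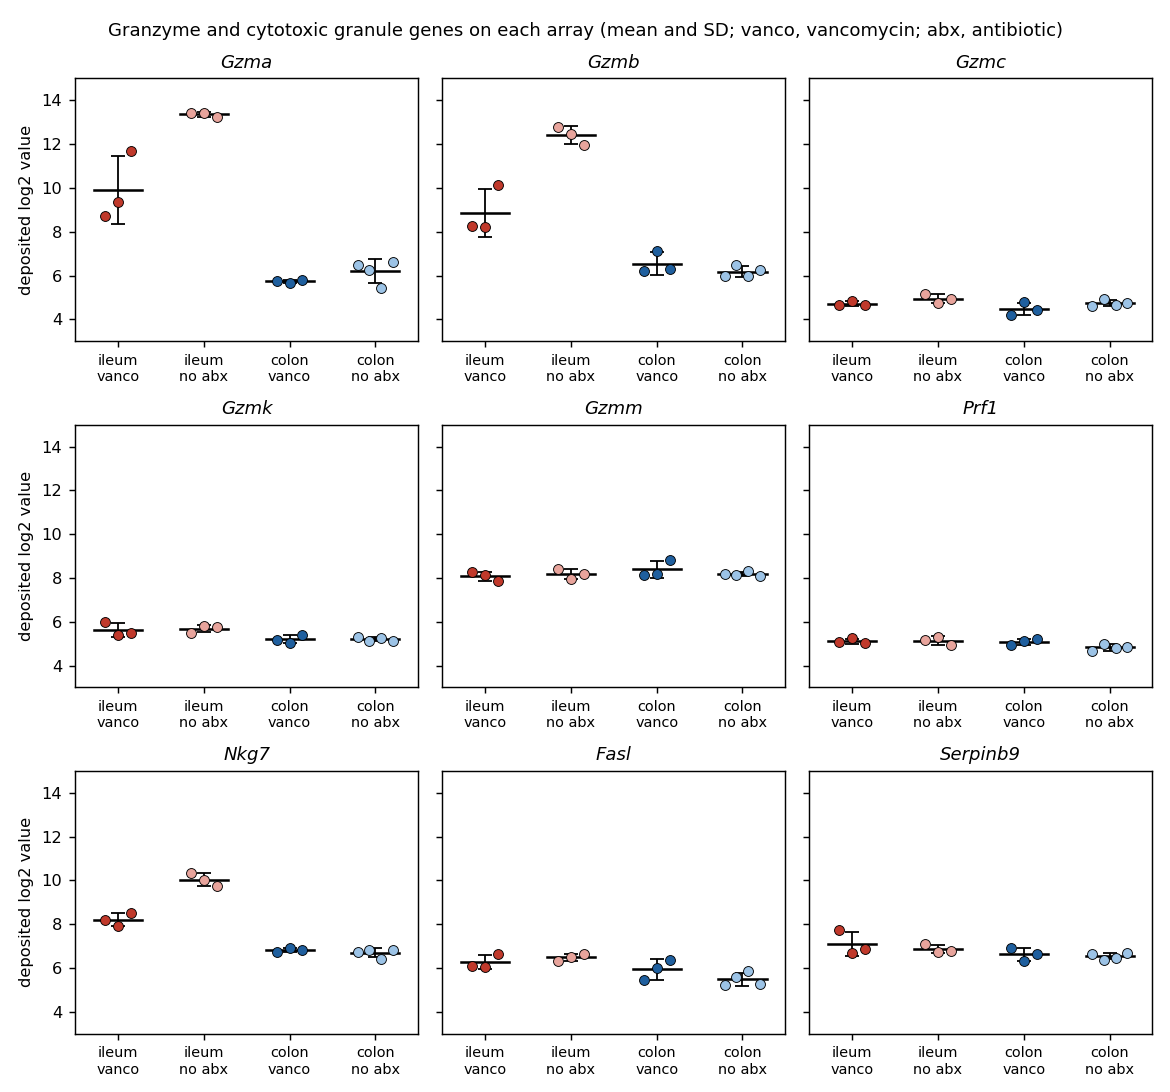
Deposited log2 value (vertical axis) of each of the 9 genes on each array (points) in the 4 groups, with the mean (horizontal line) and SD (bar) of each group. Gzma, Gzmb and Nkg7 stood highest in the ileum without antibiotic and lower on all 3 arrays of the ileum with vancomycin, while for the other 6 genes vancomycin and no antibiotic overlapped in both tissues.

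Granzyme A, a tryptase that cleaves after basic residues, showed the widest spread of the 9 genes among the treated arrays of the ileum. Gzma measured 8.72, 9.34 and 11.67 with vancomycin, against 13.43, 13.43 and 13.22 without antibiotic. The groups did not overlap, and replicate 14 was the treated array closest to the ileum without antibiotic. The SD was 1.56 with vancomycin and 0.12 without antibiotic. The adjusted p was 0.00844 in limma, and the 95% interval of the difference was -4.61 to -2.29. This fit shares its estimate of the spread among all groups, and the SD of Gzma was 0.06 in the colon with vancomycin. In a fit of the ileum arrays alone the SE was 0.66, against 0.54 here.

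Granzyme B cleaves after aspartate and activates caspases in the target cell. Gzmb measured 8.24, 8.23 and 10.14 with vancomycin, against 12.79, 12.47 and 11.98 without antibiotic. As for Gzma, all treated arrays lay below all arrays without antibiotic, and replicate 14 was the highest of the treated arrays. The adjusted p was 0.000924 in limma, rank 20 by p among the 19572 probe sets.

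Nkg7, which takes part in the release of granules, measured 8.18, 7.91 and 8.52 with vancomycin, against 10.33, 10.03 and 9.74 without antibiotic. Its SD was 0.31 with vancomycin and 0.30 without antibiotic, and the groups did not overlap. It ranked at place 5 by p of all probe sets, with an adjusted p of 0.000406 in limma. Groups of 3 arrays that do not overlap, with vancomycin lower, occurred for 8.34% of all probe sets, and among the 9 genes for these 3.

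Without vancomycin replicate 11, Gzma differed by -2.85 (adjusted p 0.0109), Gzmb by -3.23 (adjusted p 0.002) and Nkg7 by -1.82 (adjusted p 0.00093), in limma refitted on 12 arrays, so that 3 of the 9 genes passed as before. Without replicate 14, the treated array with the highest values, the differences were -4.33, -4.18 and -1.99. Without replicate 13 the Gzma difference of -3.17 did not pass (adjusted p 0.0525), and in a limma fit of the ileum arrays alone neither Gzma (adjusted p 0.182) nor Gzmb (adjusted p 0.0674) passed, while Nkg7 did (adjusted p 0.0416).

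The other granzymes of the 9 did not pass in the ileum. Gzmk, a tryptase whose gene lies next to Gzma, measured 5.97, 5.38 and 5.47 with vancomycin, against 5.50, 5.79 and 5.76 without antibiotic. Gzmc, the neighbour of Gzmb on the chromosome, measured 4.64, 4.84 and 4.67 with vancomycin, against 5.16, 4.74 and 4.91 without antibiotic. In both genes the groups overlapped, with differences of -0.08 ± 0.17 for Gzmk (adjusted p 0.92) and -0.22 ± 0.17 for Gzmc (adjusted p 0.686). Gzmm, a granzyme that prefers to cleave after methionine and leucine, measured 8.26, 8.12 and 7.86 with vancomycin, against 8.43, 7.96 and 8.18 without antibiotic, and differed by -0.11 ± 0.19 (adjusted p 0.889). The 95% intervals reached no lower than -0.44 for Gzmk, -0.59 for Gzmc and -0.53 for Gzmm. In the ileum without antibiotic, the mean lay at percentile 16.8 of all named probe sets for Gzmk, 6.5 for Gzmc and 52.2 for Gzmm. Low values are compressed, so a fall of Gzmk or Gzmc could be missed despite these intervals.

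Prf1 codes for perforin, which forms the pore. It measured 5.08, 5.24 and 5.02 with vancomycin, against 5.17, 5.32 and 4.93 without antibiotic. These values overlapped, and the difference was -0.03 ± 0.15 (95% interval -0.35 to 0.29, adjusted p 0.973). The mean of Prf1 without antibiotic lay at percentile 8.9 of all named probe sets, so a fall could be missed. Fasl, the ligand of the death receptor Fas, measured 6.10, 6.06 and 6.62 with vancomycin, against 6.32, 6.51 and 6.62 without antibiotic, a difference of -0.22 ± 0.24 (adjusted p 0.787). Serpinb9 was the only member of the 9 with a positive difference, 0.21 ± 0.24 (adjusted p 0.798), and measured 7.72, 6.70 and 6.85 with vancomycin, against 7.10, 6.75 and 6.78 without antibiotic. Its highest value was that of replicate 11, without which the difference was -0.10.

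**Figure D2:**
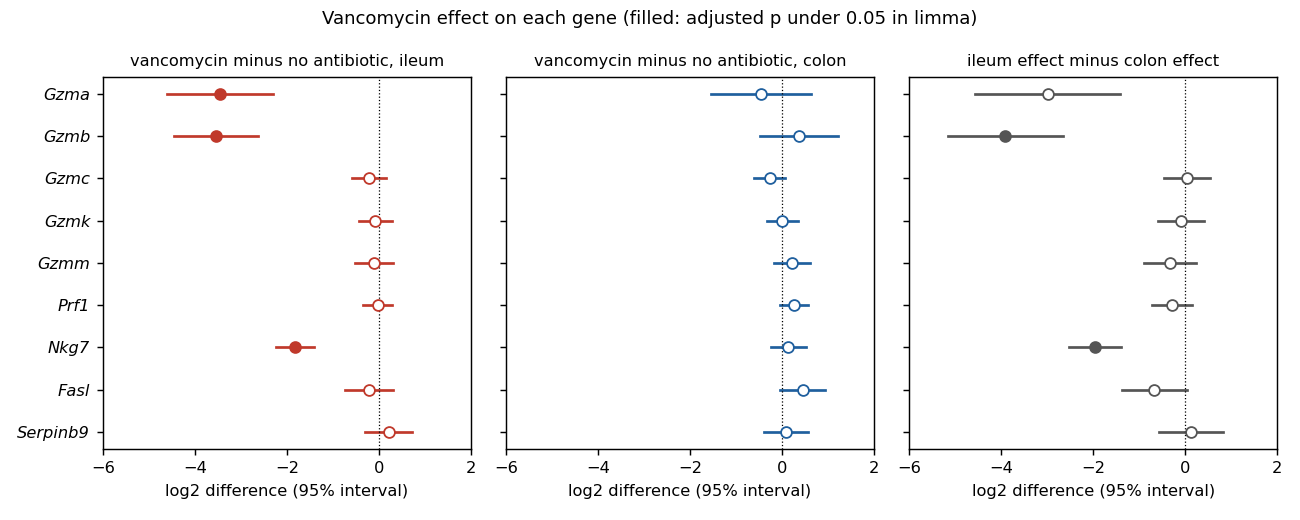
Difference in log2 expression with its 95% interval (horizontal axis) for each of the 9 genes: vancomycin minus no antibiotic in the ileum (left) and in the colon (middle), and the ileal minus the colonic difference (right), with filled points for an adjusted p under 0.05 in limma. The points for Gzma, Gzmb and Nkg7 are filled in the left panel, none is filled in the middle panel, and Gzmb and Nkg7 are filled in the right panel.

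In the colon, 0 of the 9 genes passed the test in limma, and 0 had an unadjusted p under 0.05. Of all probe sets, 0.0102% passed and 15.9% had an unadjusted p under 0.05. Gzma measured 5.76, 5.67 and 5.79 with vancomycin, against 6.49, 6.25, 5.43 and 6.63 without antibiotic. Gzmb measured 6.20, 7.14 and 6.30 with vancomycin, against 5.96, 6.49, 5.99 and 6.27 without antibiotic. Nkg7 measured 6.73, 6.93 and 6.84 with vancomycin, against 6.75, 6.84, 6.41 and 6.81 without antibiotic. In each of these genes the groups overlapped. The differences were -0.46 ± 0.50 for Gzma (95% interval -1.54 to 0.62), 0.37 ± 0.40 for Gzmb (-0.48 to 1.22) and 0.13 ± 0.18 for Nkg7 (-0.25 to 0.51), with adjusted p of 0.69, 0.685 and 0.759 in limma. Each of these intervals lies above the ileal point estimate of the same gene, which does not take the SE of that estimate into account. For Gzma and Gzmb this was fixed by the starting level. From colonic means of 6.20 and 6.18 without antibiotic, falls of the ileal size would end below 3.01, the lowest value over all probe sets.

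The remaining 6 genes also overlapped between the groups in the colon. Fasl had the largest difference of them, 0.45 ± 0.23 (adjusted p 0.347), with 5.44, 6.01 and 6.36 with vancomycin, against 5.21, 5.58, 5.88 and 5.29 without antibiotic. Prf1 measured 4.94, 5.14 and 5.20 with vancomycin, against 4.65, 5.0, 4.81 and 4.87 without antibiotic, a difference of 0.26 ± 0.14 (adjusted p 0.369). Gzmm differed by 0.22 ± 0.18, Serpinb9 by 0.09 ± 0.22, Gzmk by 0.00 ± 0.16 and Gzmc by -0.27 ± 0.16, with adjusted p between 0.422 and 0.993. Over the 9 genes, 7 had a positive and 2 a negative difference, with a median of 0.13, while 53% of all probe sets had a positive difference and their median was 0.02.

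The vancomycin difference itself was compared between the tissues, although for Gzma and Gzmb the colon started too low to show a fall of the ileal size. For 2 of the 9 genes it was lower in the ileum than in the colon: the ileal minus the colonic difference was -3.91 ± 0.58 for Gzmb (adjusted p 0.0154) and -1.96 ± 0.26 for Nkg7 (adjusted p 0.0101, limma), against 0.158% of all probe sets in this direction. For Gzma it was -2.99 ± 0.74, which did not pass (adjusted p 0.198). Fasl came next with -0.67 ± 0.33 (adjusted p 0.663), and the other 5 genes lay between -0.33 and 0.12. The call for Gzma turned on vancomycin ileum replicate 14, without which the value was -3.87 (adjusted p 0.000817). Gzmb did not pass without vancomycin colon replicate 13 (adjusted p 0.0588) or without ileum replicate 1 of the group without antibiotic (adjusted p 0.0542). It also did not pass in limma with the replicate number as a fixed effect (adjusted p 0.0606). Nkg7 passed without each of the 13 arrays in turn. Without vancomycin ileum replicate 11, the difference was -3.60 for Gzmb (adjusted p 0.0134), -1.95 for Nkg7 (adjusted p 0.00874) and -2.40 for Gzma (adjusted p 0.163).

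The starting level in the colon was low for the genes that fell in the ileum. Without antibiotic, Gzma averaged 6.20 ± 0.54 in the colon (SD, n = 4) and 13.36 ± 0.12 in the ileum (SD, n = 3). Gzmb averaged 6.18 ± 0.25 in the colon and 12.41 ± 0.41 in the ileum, and Nkg7 6.70 ± 0.20 in the colon and 10.03 ± 0.30 in the ileum. Among all named probe sets, the colonic mean of Gzma lay at percentile 24.4 and the ileal mean at percentile 92.3. For Gzmb the percentiles were 24.0 in the colon and 87.5 in the ileum, and for Nkg7 they were 32.5 in the colon and 69.8 in the ileum. The lowest value over all probe sets was 3.01. A colonic fall as large as the ileal one would have taken the means of Gzma and Gzmb below it, so it could not have shown. How far a smaller fall, or any fall of Nkg7, could have shown in the colon was not tested.

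Of the 9 genes, 5 were lower in the colon than in the ileum without antibiotic, against 9.59% of all probe sets. These were Gzma (-7.16 ± 0.50, adjusted p 1.56e-07), Gzmb (-6.24 ± 0.40, adjusted p 6.02e-08), Nkg7 (-3.33 ± 0.18, adjusted p 9.01e-09), Fasl (-0.99 ± 0.23, adjusted p 0.00561) and Gzmk (-0.48 ± 0.16, adjusted p 0.0463), by limma. The call of Gzmk was lost in 7 of 15 alternatives, with adjusted p up to 0.158. Serpinb9 did not pass (adjusted p 0.35), although its colonic values of 6.36 to 6.68 lay below its ileal values of 6.75 to 7.10; with it, 6 genes did not overlap, against 14.1% of all probe sets in this direction. Prf1 (-0.31 ± 0.14), Gzmc (-0.19 ± 0.16) and Gzmm (-0.02 ± 0.18) did not pass. Gzmm averaged 8.17 ± 0.10 in the colon and 8.19 ± 0.24 in the ileum, a 95% interval of the difference of -0.41 to 0.37.

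With vancomycin, 3 of the 9 genes remained lower in the colon than in the ileum, against 7.67% of all probe sets: Gzma (-4.17 ± 0.54, adjusted p 8.87e-05), Gzmb (-2.32 ± 0.42, adjusted p 0.00161) and Nkg7 (-1.37 ± 0.19 , adjusted p 0.00017), by limma. The ileal fall amounted to 48.2% of the log2 gap between the tissues without antibiotic for Gzma, 56.8% for Gzmb and 54.9% for Nkg7. The order of the levels was the same for the 3 genes in the ileum, lower with vancomycin than without antibiotic, and both colonic groups lay below the ileum with vancomycin and did not differ from each other beyond their spread. Fasl (-0.32 ± 0.24, adjusted p 0.44) and Gzmk (-0.40 ± 0.17, adjusted p 0.144) did not pass between the tissues under vancomycin. The comparisons share arrays, so their values for a gene are not independent.

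Other genes of the granule pathway were taken as lists, which were chosen with earlier results of these data known. Of the granzymes outside the 9, Gzmf, Gzmg and Gzmn were measured, 0 of 3 passed in the ileum, and their differences were 0.05, -0.05 and 0.02. Of 14 genes for packaging, processing and release of granules, 1 fell in the ileum: Ctsw, a cathepsin of cytotoxic lymphocytes, by 0.89 ± 0.18 (adjusted p 0.0451, limma). It averaged 7.88 ± 0.38 with vancomycin and 8.76 ± 0.02 without antibiotic (SD, n = 3 each). Cst7, a cystatin that inhibits the protease that activates progranzymes, differed by -0.37 (adjusted p 0.578), that protease itself, Ctsc, by -0.29 (adjusted p 0.768), and the fusion protein Stx11 by 0.30 (adjusted p 0.522). The list's median was -0.07. In the family of the granzyme inhibitor, 0 of 9 measured serpins passed, with Serpinb6a at -0.42 (adjusted p 0.601) and Serpinb9b, the neighbour of Serpinb9, at -0.22 (adjusted p 0.766).

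Of 9 measured genes of the death receptor route, 0 passed in the ileum and 8 had a negative difference, against 46% of all probe sets. The ligand Tnfsf10, known as TRAIL, averaged 12.13 ± 0.25 with vancomycin and 12.85 ± 0.32 without antibiotic, a difference of -0.71 (adjusted p 0.167). The receptor Fas differed by -0.59 (adjusted p 0.327) and the adaptor Fadd by -0.37 (adjusted p 0.535). Of 16 measured regulators of the cytotoxic programme, 3 fell, against 0.485% of all probe sets. Il2rb, the receptor chain that IL-2 and IL-15 share, differed by -1.28 ± 0.20 (adjusted p 0.00746), the transcription factor Irf8 by -1.41 ± 0.24 (adjusted p 0.0148), and Prdm1, which codes for the transcription factor Blimp-1, by -1.59 ± 0.31 (adjusted p 0.0397, limma). Il2rb averaged 6.59 ± 0.42 with vancomycin and 7.87 ± 0.14 without antibiotic. Prdm1 also marks plasma cells, and Irf8 is also expressed in myeloid and B cells. Eomes and Tbx21, the T-box factors of cytotoxic lymphocytes, are also in this list. They differed by 0.57 (adjusted p 0.507) and -0.18 (adjusted p 0.776, limma). Their means in the ileum without antibiotic were low, 5.08 and 4.97, so falls could be missed. Eomes ranged between 4.94 and 6.34 with vancomycin. Both genes and the cytokine gene Il15, at -0.05 (adjusted p 0.98), are named here after their values were seen. In the colon, 0 genes of these 5 lists passed.

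**Figure D3:**
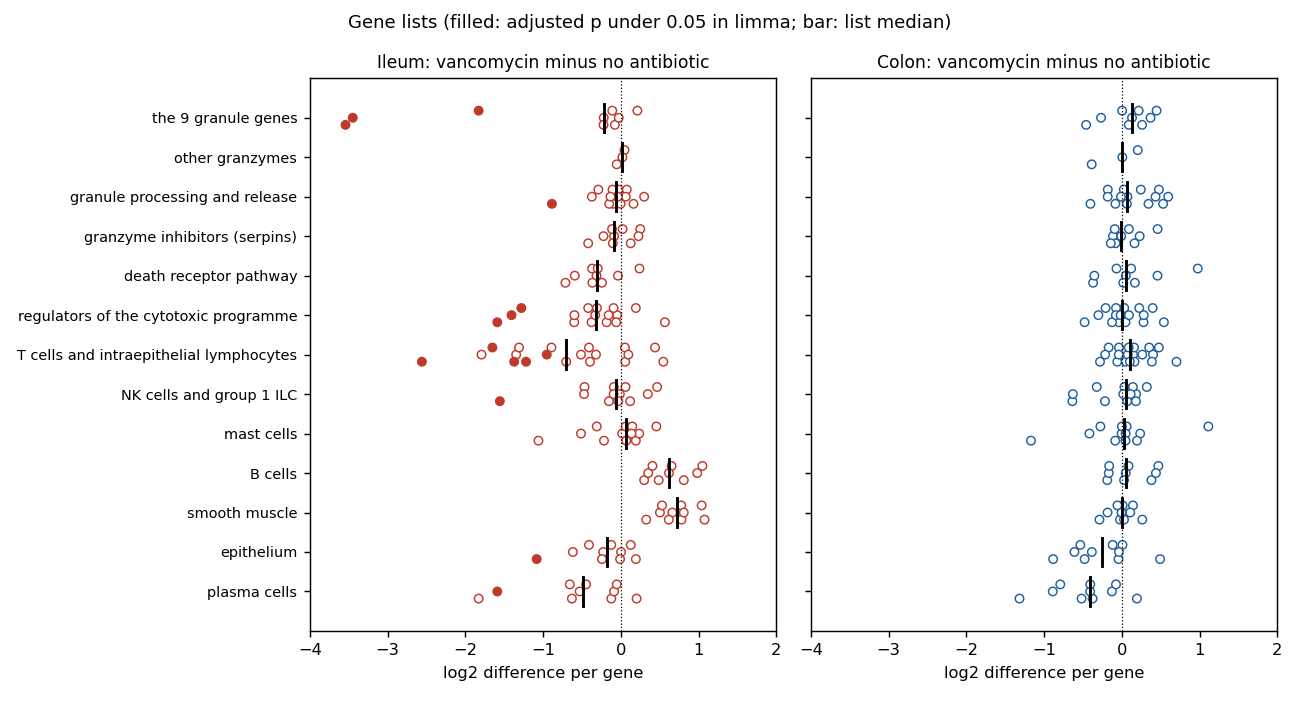
Difference in log2 expression with vancomycin minus no antibiotic (horizontal axis) for each gene of the 9 and of each list (circles, filled for an adjusted p under 0.05 in limma), with the list's median (bar), in the ileum (left) and the colon (right). Filled circles appear in the left panel, with 5 among the T cell and intraepithelial lymphocyte markers and 3 each among the 9 genes and the regulators, and none appears in the right panel.

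Of 19 measured markers of T cells and intraepithelial lymphocytes, which can hold these granules, 5 fell in the ileum, against 0.485% of all probe sets, 0 rose and 14 did not pass. A negative difference was found for 14 of the 19 and a positive one for 5, while 46% of all probe sets had a negative one. The median was -0.70, and -0.95 without replicate 11. The 5 were Cd7, a T cell and innate lymphocyte surface protein, with -2.56 ± 0.26, Cd244a, a receptor of cytotoxic lymphocytes, with -1.65 ± 0.18, the adhesion receptor chain Itgae, or CD103, with -1.37 ± 0.20, the receptor Cd96 with -1.22 ± 0.18 and the chemokine Ccl5 with -0.95 ± 0.12, at adjusted p of 0.000406 to 0.00506 in limma. Cd7 ranged between 8.95 and 10.35 with vancomycin and between 12.06 and 12.21 without antibiotic. Cd8a, the CD8 chain of intraepithelial lymphocytes, did not pass (-1.35, adjusted p 0.072), nor did Cd8b1 (0.44, adjusted p 0.771), both named after their values were seen. The mean over the 19 markers ranged between 7.93 and 8.76 with vancomycin and between 9.03 and 9.15 without antibiotic in the ileum. In the colon it ranged between 7.19 and 7.52 with vancomycin and between 7.13 and 7.38 without antibiotic. The part of these cells in the granzyme result was not tested beyond the comparison with CD3 genes below.

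Of 12 markers of natural killer cells and group 1 innate lymphoid cells, 1 fell in the ileum: Klrd1, or CD94, a receptor that cytotoxic T cells also carry, by 1.56 ± 0.26 (adjusted p 0.0156, limma). Klrk1, or NKG2D, differed by 0.47 (adjusted p 0.389) and Klrc1 by -0.47 (adjusted p 0.489), and the list's median was -0.06. The mean over these markers ranged between 6.47 and 6.64 with vancomycin and between 6.70 and 6.74 without antibiotic. Ncr1, or NKp46, a defining natural killer cell marker named after its values were seen, differed by 0.35 (adjusted p 0.517). In the ileum without antibiotic Ncr1 averaged 6.02, Klrk1 5.27 and Klrc1 5.56. Low values are compressed, so falls of these genes could be missed.

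Mast cells also hold granule proteases, some of which are coded in the same gene cluster as Gzmb. Of 12 mast cell markers, 0 passed in the ileum, and the mean over the list ranged between 6.63 and 6.79 with vancomycin and between 6.62 and 6.85 without antibiotic. Mcpt1, a protease of mucosal mast cells, averaged 7.99 ± 0.37 with vancomycin and 9.05 ± 0.16 without antibiotic in the ileum (-1.06 ± 0.27, adjusted p 0.129), and 8.78 ± 0.54 with vancomycin and 7.67 ± 0.32 without antibiotic in the colon (1.11 ± 0.25, adjusted p 0.102). The difference between the tissues passed (-2.17 ± 0.37, adjusted p 0.0349, limma).

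Among lists of other cell types, 0 of 9 B cell and 0 of 10 smooth muscle markers passed in the ileum, although all had positive differences, against 53.8% of all probe sets, with medians of 0.62 and 0.72. Without replicate 11, which was left out after its values were seen, 1 of the 9 B cell markers had a positive difference, with a median of -0.17, and 9 of the 10 smooth muscle markers, with a median of 0.33. Of 10 epithelial markers, 1 fell, the epithelial transcription factor Elf3 by 1.08 (adjusted p 0.036), and of 10 plasma cell markers, Prdm1 alone passed. The smooth muscle mean ranged between 12.91 and 14.32 with vancomycin and between 12.73 and 12.93 without antibiotic, and the epithelial mean between 14.57 and 15.04 with vancomycin and between 15.07 and 15.18 without antibiotic. The B cell mean ranged between 7.50 and 10.35 with vancomycin and between 7.59 and 8.24 without antibiotic, and the plasma cell mean between 9.23 and 9.77 with vancomycin and between 9.96 and 10.1 without antibiotic. Their part in the granzyme result was not tested.

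**Figure D4:**
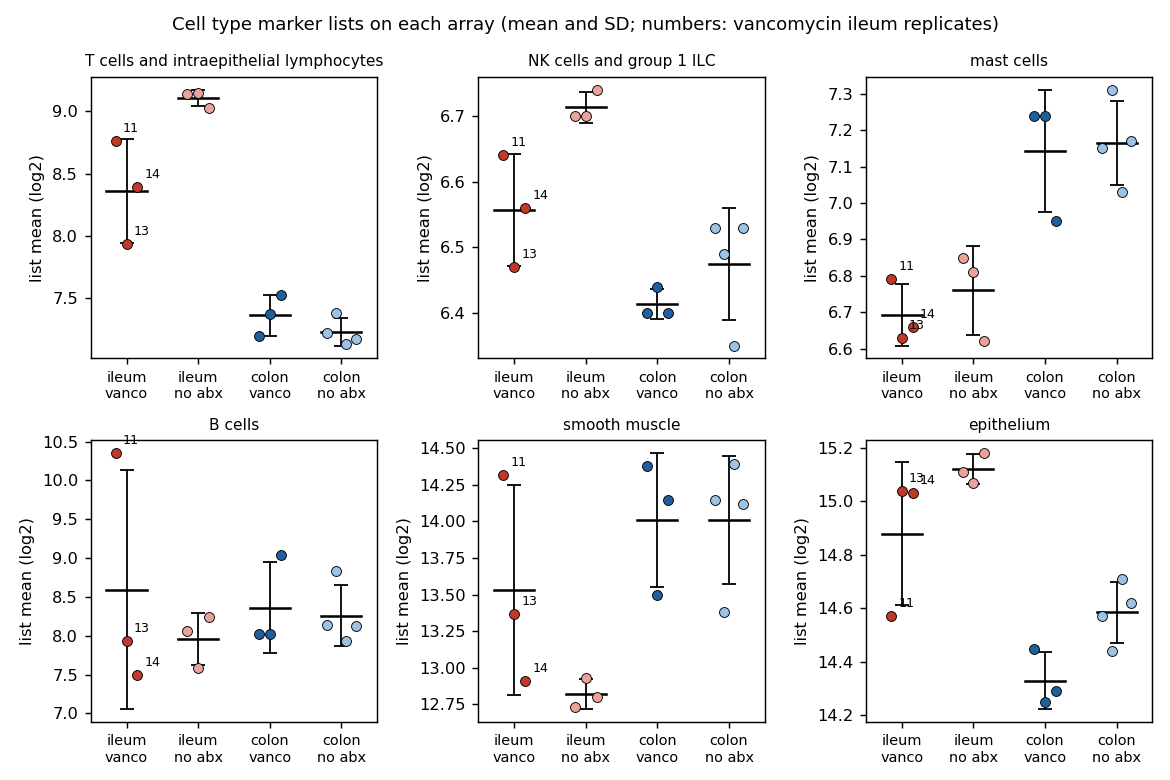
Mean log2 value over the markers of 6 cell types (vertical axes, each with its own scale) on each array (points), with mean and SD of each group, and replicate numbers beside the vancomycin ileum arrays. The T cell and intraepithelial lymphocyte mean was lower on all 3 vancomycin ileum arrays than on all arrays of the ileum without antibiotic. The same held for the natural killer cell and the epithelial means, by small margins. The highest array with vancomycin was at 6.64 for natural killer cells, against a lowest of 6.70 without antibiotic. For epithelium these values were 15.04 and 15.07. Klrd1 and Elf3 alone passed in these lists. Replicate 11 was the highest of its group for B cells and smooth muscle and the lowest for epithelium.

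To set the 3 genes against T cell content, their values were taken relative to the mean of the CD3 genes Cd3d, Cd3e and Cd3g, parts of the T cell receptor complex, on the same array, a comparison chosen after the values were seen. The CD3 mean was 10.84, 9.38 and 9.77 on vancomycin ileum replicates 11, 13 and 14, against 11.30, 10.98 and 10.80 without antibiotic. Only replicate 11 overlapped with the arrays without antibiotic. Relative to CD3, Gzmb was at -2.60, -1.15 and 0.37 with vancomycin, against 1.49, 1.49 and 1.18 without antibiotic. Gzma was at -2.12, -0.04 and 1.90 with vancomycin, against 2.13, 2.45 and 2.42 without antibiotic. For Nkg7 these values were -2.66, -1.47 and -1.25 with vancomycin, against -0.97, -0.95 and -1.06 without antibiotic. The groups did not overlap for any of the 3 genes, but the share of all probe sets that do not overlap on this scale was not computed. The mean difference relative to CD3 was -2.52 for Gzmb, -2.42 for Gzma and -0.80 for Nkg7, each with a two-sided exact permutation p of 0.1, the smallest that 3 arrays against 3 allow. That test could not reach the threshold of 0.05, and the 3 genes entered it because they fell on these same arrays. It therefore decides nothing about a fall beyond T cell content. Without replicate 11 these differences were smaller, -1.78 for Gzmb, -1.40 for Gzma and -0.37 for Nkg7, and the groups still did not overlap. Cd3d alone differed by -0.40 (adjusted p 0.792), Cd3e by -0.89 (adjusted p 0.182) and Cd3g by -1.79 (adjusted p 0.054), so the CD3 genes themselves did not pass in limma. Cd247, of the same receptor complex, was not part of the mean and differed by 0.06 (adjusted p 0.965, limma).

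**Figure D5:**
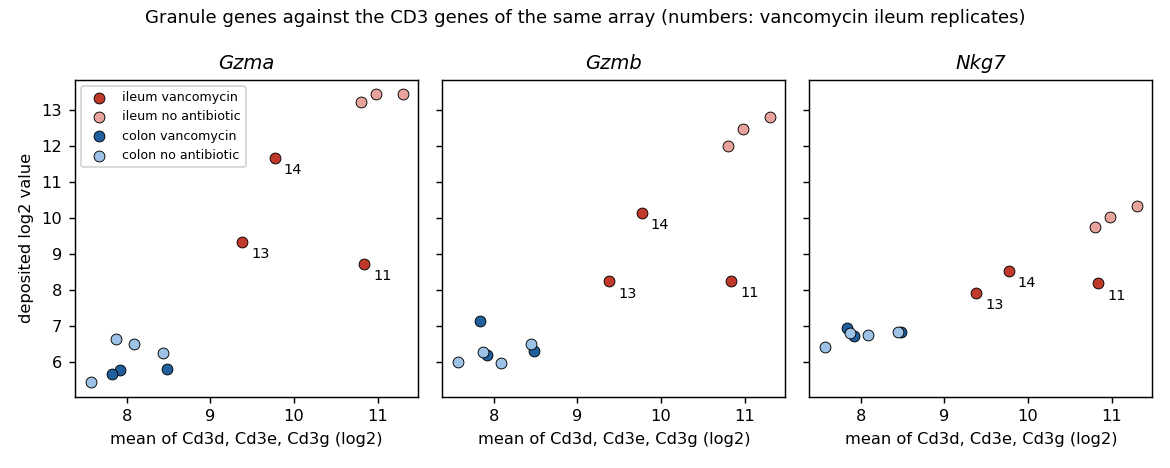
Deposited log2 value of Gzma, Gzmb and Nkg7 (vertical axis) against the mean log2 value of Cd3d, Cd3e and Cd3g on the same array (horizontal axis), 1 point per array, with replicate numbers beside the vancomycin ileum arrays. Replicate 11 has a CD3 mean of 10.84, inside the range of the ileum without antibiotic, and Gzma, Gzmb and Nkg7 values below all arrays of that group.

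The 9 genes did not vary as a single set. Over the 13 arrays, which span both tissues and both treatments, Pearson's r was 0.979 between Gzma and Gzmb, 0.991 between Gzmb and Nkg7 and 0.979 between Gzma and Nkg7. Between Gzma and its neighbour Gzmk it was 0.703, between Gzmb and its neighbour Gzmc 0.557, and between Gzma and Gzmm -0.29. Prf1, the partner of the granzymes in the granule, had an r of 0.419 with Gzma and 0.493 with Gzmb. The arrays of a group and of a tissue share their origin, so these values describe the arrays and were not tested. Among all named genes, the one most like Gzmb was Cd7 (r 0.995), followed by Nkg7 (0.991) and Ccl5 (0.983). Cd7 (0.992) was also most like Nkg7, while Ido1, which codes for a tryptophan-degrading enzyme, was most like Gzma (0.985). Ido1 fell by 3.11 in the ileum (adjusted p 0.00125, limma). For the genes that did not pass, the most alike were Nkain4 for Gzmk (0.965), Dnase1l2 for Gzmm (0.951), Themis3 for Fasl (0.939), Dok2 for Serpinb9 (0.939), Faap24 for Gzmc (0.903) and Olfr178 for Prf1 (0.897). Each of these is the highest r among all named genes over only 13 arrays. How high an r would arise by chance in such a search was not computed, so these likenesses carry no meaning by themselves.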

How the data were processed

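Total RNA from colon and ileum was extracted with the miRNeasy kit and biotin-labelled for Affymetrix arrays of 1 colour, per the labels. The submitters' processing notes name Affymetrix Expression Console 1.4.1.46 and RMA, without the role of each, as what the authors used to make the deposited log2 values. RMA corrects background, quantile-normalizes arrays and summarizes probes, so a shift common to most genes would be removed and low values are compressed. No source used here gives the genome build behind the array annotation. No columns of the value table were left out.

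Of 28846 probe sets, the platform annotation gives 19572 exactly 1 gene symbol, 0 several and 9274 none. All 19572 matched RefSeq's GRCm38.p6 table by Entrez identifier, with 0 symbols changed. They represent 19505 genes, of which 55 have several probe sets, and the probe set with the highest mean stood for the gene.

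All 13 arrays were modelled by their group with lmFit and eBayes (limma 3.58.1 under R 4.3.3). The comparisons were contrasts of these group means, with Benjamini-Hochberg adjustment over the 19572 probe sets and a threshold of 0.05. A difference is called when its adjusted p is under the threshold. Precision is limited by the number of arrays. The steps were tested on simulated data. Exact permutation tests used SciPy 1.17.1, and figures matplotlib 3.10.9.

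The 9 genes and all lists were chosen with earlier results of these data known. The named genes are the 9, up to 4 genes per list with the smallest p in the ileum, any list gene that passed in a comparison of vancomycin, and the genes most correlated with each of the 9. Promoters were matched by symbol in RefSeq's table. Alternatives were a fit of the compared groups alone, array weights, trended and robust variances, median centring, repeated quantile normalization, removal of the dimmest 33.3% of probe sets, the mean of a gene's probe sets, a replicate block and leaving out each array.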

Additional observations from a re-analysis of the deposited data

Results flagged for a closer look

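For 7 of the 56 named genes the difference between vancomycin and no antibiotic was not the same in the ileum as in the colon. The limma test of that difference passed for 0.189% of all probe sets in either direction. List genes that passed it were named for that reason, and the lists were chosen with earlier results known. The 7 genes are therefore a selected set. The ileal minus the colonic log2 difference was -3.91 for Gzmb, -1.96 for Nkg7, -2.96 for Cd7, -1.92 for Cd244a, -1.76 for Itgae, -1.38 for Cd96 and -2.17 for Mcpt1. Gzmb started too low in the colon to show a fall of the ileal size there. The colonic means of the other flagged genes without antibiotic lay between 6.20 for Itgae and 7.78 for Cd244a. How far a fall of these genes could have shown in the colon was not tested. The T cell and innate lymphocyte genes Cd7, Cd244a, Itgae and Cd96 had adjusted p of 0.00687, 0.00766, 0.0182 and 0.0409. All 7 genes had lower means with vancomycin in the ileum, and all had higher means with it in the colon, where none passed the test by itself.

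In the 4 colon arrays without antibiotic, 1 array stood apart from the other 3 for 2 of the 56 genes tested in this way, by Dixon's test. Hopx, a regulator of differentiation, reached 9.49 on its highest array, and the smooth muscle gene Cnn1 was at 15.56 on its lowest array. Dixon's test marks about 5% of groups by chance.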

How the results depend on the processing

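Of 704 values of the 9 genes over all comparisons and alternatives, 661 kept their direction and their side of the threshold, 13 no longer passed, 2 passed newly and 28 changed sign. None of the 28 concerned a difference past the threshold. In the ileum the number of the 9 genes that passed was 3, and with each array left out in turn it was 2 to 3. It was 1 (Nkg7) in the fit of the compared groups alone. Fewer arrays entered that fit, and the main fit shares its estimate of the spread between the tissues. The SE was 0.663 for Gzma and 0.505 for Gzmb in that fit, against 0.539 and 0.425 in the main fit. Why these calls were lost was not tested. In the colon the number that passed was 0 in all 15 alternatives. For the difference between the tissues it was 2, and 1 to 3 with each array left out; array weights also added Gzma (-3.21, adjusted p 0.0156). For colon against ileum without antibiotic it was 5, and 3 without the dimmest 33.3% of probe sets, which removed Fasl and Gzmk; Gzmk lost its call in 7 of 15 alternatives. Under vancomycin it was 3 in all 15 alternatives.

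The labels give colon and ileum arrays the same replicate numbers but do not say that a number is a mouse. Deviations of same-numbered arrays from their group means correlated at 0.08, 0.03, -0.02, 0.24, 0.18 and 0.11 for numbers 1, 2, 3, 11, 13 and 14. Of 12 arrays, 7 correlated best with their own number. Each had only 3 or 4 candidates, the arrays of the other tissue with the same treatment, so some matches arise by chance. These values do not settle whether a number is a mouse. The main fit took no pairs because the labels give none. With the replicate block as a fixed effect, which drops colon replicate 5, 1 of the 9 genes passed for the difference between the tissues, Nkg7 (Gzmb -3.94, adjusted p 0.0606), and Gzmm was at 0.017 for colon minus ileum without antibiotic. The replicate block as a random effect (correlation 0.097) changed no count of the vancomycin comparisons.

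Sign changes of the 9 genes were small. In the ileum, array weights gave 0.049 for Prf1 and -0.08 for Serpinb9. Leaving out arrays gave -0.258 to 0.037 for Gzmk, -0.225 to 0.01 for Gzmm, -0.132 to 0.063 for Prf1 and -0.102 to 0.408 for Serpinb9. In the colon, Gzmk was at -0.018 with array weights and -0.092 with repeated quantile normalization, and leaving out arrays gave -0.093 to 0.087 for Gzmk, -0.008 to 0.347 for Gzmm and -0.053 to 0.242 for Serpinb9. For the difference between the tissues, array weights gave -0.154 for Serpinb9, and leaving out arrays gave -0.085 to 0.205 for Gzmc, -0.263 to 0.032 for Gzmk and -0.191 to 0.319 for Serpinb9. For colon minus ileum, leaving out arrays gave -0.132 to 0.103 for Gzmm without antibiotic and -0.073 to 0.057 for Prf1 with vancomycin. Among list medians in the ileum, leaving out each vancomycin array, an alternative added after seeing the data, gave -0.168 to 1.138 for B cells, -0.32 to 0.08 for epithelium, -0.283 to 0.123 for the ileal label genes, -0.073 to 0.132 for other granzymes, -0.073 to 0.002 for granule packaging, -0.105 to 0.023 for granzyme inhibitors and -0.002 to 0.148 for mast cells. The cause of these changes was not tested. With 3 or 4 arrays a group, and 5 of the 9 genes in the dimmest 33.3% of probe sets, changes in Gzmc, Gzmk, Prf1, Fasl and Serpinb9 could be missed.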
